A study of Mus musculus with 19 samples.

Results

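The 5 arrays of vehicle-treated mice compared the lung of each mouse with 1 common pool of cell line RNA, and they give the gene expression of adult lung without benzo(a)pyrene. They were chosen by their label as controls and are 5 of the 19 arrays of the series. The other 14 arrays carry lung of mice given benzo(a)pyrene at 25, 50 or 75 mg/kg/day (5, 4 and 5 mice) and are used here only for the spread between mice. All mice were 25-week-old males of the transgenic strain 40.6 (MutaMouse), which carries a bacterial reporter gene for mutations. The controls received the vehicle by gavage each day for 28 days, and a piece of lung was collected 3 days later. The reference was total RNA pooled from 11 mouse cell lines (Stratagene Universal Mouse Reference RNA). Each array held the RNA of 1 mouse in red (Cy5) and the reference in green (Cy3). No array had the dyes exchanged, so a difference between the dyes and a difference between lung and cell lines cannot be told apart for any single gene. The reference was 1 pool, so the error below holds the spread between lungs and the measuring error of both channels, and leaves out any spread between reference pools.

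An adult lung is a thin sheet of alveolar epithelium over a dense capillary bed. Flat alveolar type 1 cells carry gas exchange, type 2 cells secrete surfactant and renew the sheet, and ciliated and club cells line the conducting airways. Fibroblasts, smooth muscle, resident macrophages and circulating blood cells make up most of the rest. Few of these cells divide in a healthy adult. Cell lines, by contrast, are kept in continuous division, so their RNA is rich in transcripts of DNA replication, mitosis and biosynthesis. In RNA from a whole tissue, fewer cells of a type and less RNA per cell cannot be told apart.

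A spot was read as detected where the scanner software marked it well above background. Between 19777 and 26034 of 43379 spots were detected in lung, and between 24601 and 29513 in the reference. The ratios of any 2 control arrays correlated at r = 0.898 to 0.962 across genes, which are not independent replicates. Control 5 had the lowest mean correlation with the others (0.914) and control 2 the highest (0.943). The arrays of controls 1 and 3 were marked for evaluation in the scanner's own quality report. The labelled tissue and sex were checked first. The surfactant genes were far above the reference on all 5 arrays. Ddx3y, a gene of the Y chromosome, was higher in lung (mean log2 ratio 1.37). It alone was called among the 4 sex-linked genes tested, and the Y chromosome genes Eif2s3y and Kdm5d were not. Xist, the transcript of the silenced X of females, was not well above background in lung on any array.

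Values are log2 ratios of lung over reference after background correction and loess normalisation, where 1 unit is a 2-fold difference, and each mean is given with its SD over 5 mice. A gene was tested where its probe was well above background on at least 4 of the 5 arrays in lung or in the reference, so genes dim in both are not in the counts. It was called where limma's treat test against a 2-fold difference gave a Benjamini-Hochberg adjusted p below 0.05 over 19825 genes. By this rule 1548 genes were higher in lung (7.81%) and 905 were lower (4.56%), together 12.4%. Against a ratio of 1, 13288 genes (67%) differed in either direction. The split between higher and lower differed between normalisations: 63.1% of the calls were higher in lung after loess, 28% (643 higher and 1653 lower) when each array was centred on its median with no loess, which put the median of all genes at -0.29, and 48.3% (2808 and 3001) with the scanner's processed signals, where that median was -0.18. Of the 1548 genes called higher, 643 were still called under median centring. All 905 called lower were called there too. In the following, a list of genes is described by how many tested members were called and by its median, beside 7.81% higher, 4.56% lower and a median of 0 over all genes.

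**Figure D1:**
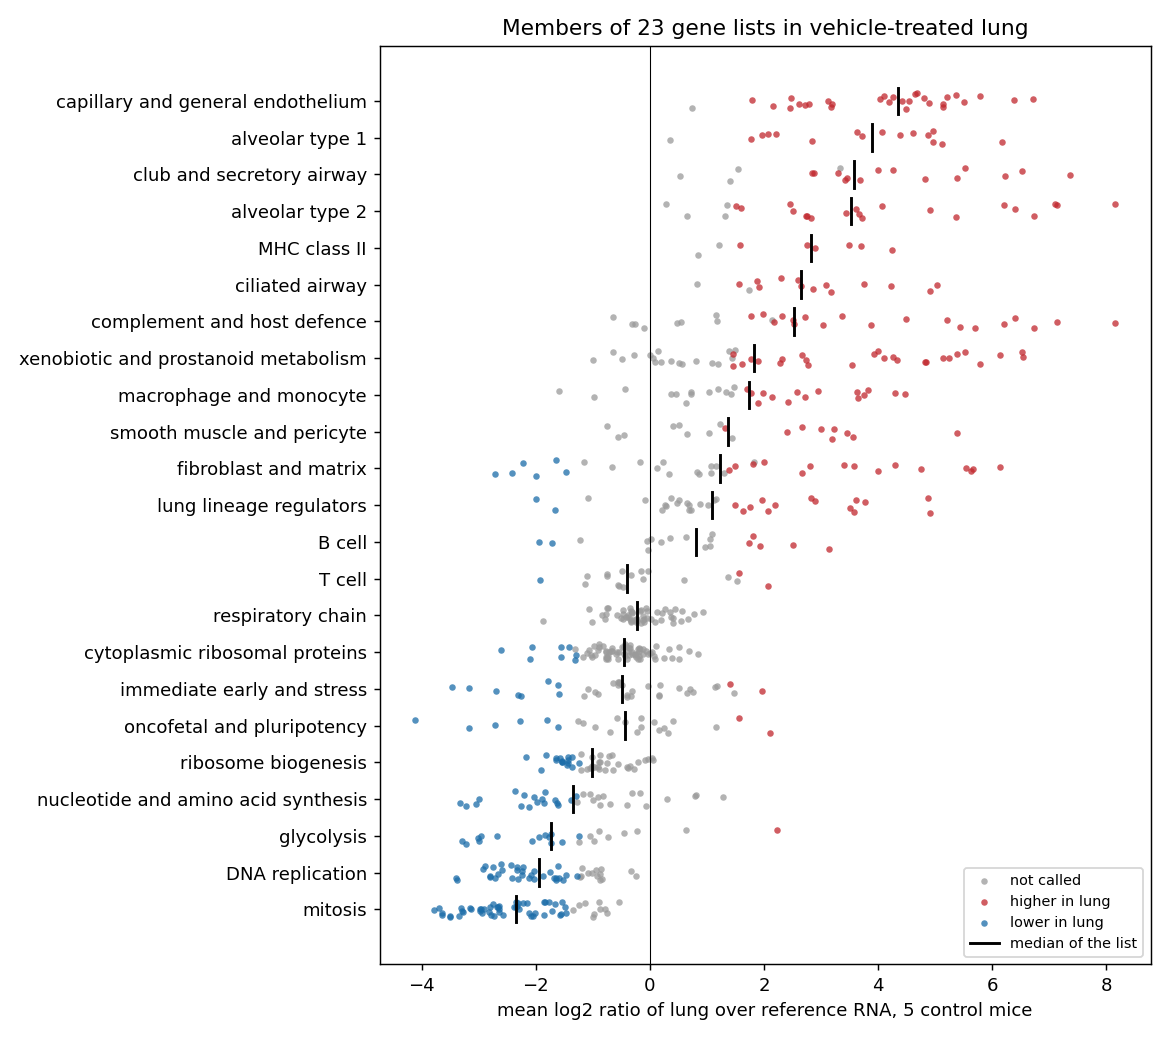
Mean log2 ratio of lung over reference (horizontal axis, 5 control mice) for each tested member of 23 gene lists, with called members in red (higher in lung) or blue (lower) and the median of each list as a bar. Medians run from 4.34 for endothelium and 3.9 for alveolar type 1 genes to -1.95 for DNA replication and -2.35 for mitosis, and the fibroblast list has called members on both sides of 0.

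Alveolar type 2 genes held some of the highest ratios of the array: 20 of 24 were called higher, none lower, and the median log2 ratio was 3.53. The surfactant proteins lower surface tension in the alveolus or bind inhaled microbes. Sftpd, a collectin that binds microbes, had log2 ratios of 7.71, 8.01, 8.4, 8.29 and 8.38 in controls 1 to 5, the highest mean of all named genes measured in both channels (8.16 ± 0.29, SD, n = 5). That is 286-fold over the reference (95% interval 239 to 342, adjusted p = 1.35e-08, limma treat with Benjamini-Hochberg). For Sftpc, the hydrophobic surfactant protein made only by type 2 cells, the values were 7.84, 7.15, 6.79, 6.62 and 7.06. Control 1 was highest and control 4 lowest for this gene. Sftpa1, the other collectin, reached a mean of 6.41 ± 0.33, and Sftpb, the protein that spreads surfactant into a film, 3.61 ± 0.08. Values of Sftpb were 3.6, 3.58, 3.71, 3.5 and 3.68, so the 5 mice lay within 3.5 to 3.71. The lysozymes Lyz1 and Lyz2, which cut bacterial cell walls, had means of 7.13 ± 0.15 and 6.73 ± 0.17, and Lyz1 differed little between mice (6.96, 7.37, 7.17, 7.09 and 7.08). Lyz2 is also made by macrophages. Among the members not called, the lowest were the secreted protein Egfl6 (0.65 ± 0.42) and the transcription factor Etv5 (0.28 ± 0.24).

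The gene start of Sftpb is shown because Sftpb is a textbook target of Nkx2-1, the transcription factor of lung epithelium, which binds sites with the core CTCAAG. Nkx2-1 itself was higher in lung (2.73, 2.41, 3.06, 3.06 and 2.87, mean 2.83 ± 0.27, adjusted p = 4.68e-06, limma treat with Benjamini-Hochberg). The 250 bases before the start of Sftpb (RefSeq, GRCm38.p6, chr6:72304360-72304609, + strand) hold CTCAAG 2 times, in capitals:
Sftpb: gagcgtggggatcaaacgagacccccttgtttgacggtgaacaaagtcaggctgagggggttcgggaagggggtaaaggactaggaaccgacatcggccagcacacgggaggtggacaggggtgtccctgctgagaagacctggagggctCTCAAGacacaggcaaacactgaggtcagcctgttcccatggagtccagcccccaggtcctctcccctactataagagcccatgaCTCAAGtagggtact
Searched on both strands, CTCAAG occurred in this window of 3 of the 19 alveolar type 2 genes with a promoter in the RefSeq table (15.8%) and in 13.6% of the 27025 genes of the table. It occurred at least 2 times in 1.01% of all genes. A match of letters is not a binding site, and these arrays did not measure binding.

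Among alveolar type 1 genes 15 of 16 were called higher, with a median of 3.9. Clic5, a chloride channel protein of the cell cortex, led with values of 5.64, 5.99, 6.59, 6.18 and 6.45 (mean 6.17 ± 0.38, adjusted p = 8.17e-08, limma treat with Benjamini-Hochberg). Ager, the receptor for glycated proteins that sits on the basal side of type 1 cells, had 5.02, 5.06, 5.18, 5.06 and 5.24. Its SD of 0.09 was the smallest in the list. The water channel Aqp5 (4.96 ± 0.41) and the homeodomain protein Hopx (4.87 ± 0.14) were also called. Sema3e, a guidance cue for vessels, was the lowest called member at 1.77 ± 0.19. Pdpn, a surface glycoprotein that serves as a type 1 marker in lung, was at 0.35 ± 0.16 and was not called.

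Airway genes were higher as well, and here the mice differed more. Of the club and secretory genes 14 of 18 were called higher (median 3.57), and of the ciliated genes 13 of 15 (median 2.64). Scgb1a1, the main secreted protein of club cells, had log2 ratios of 7.71, 6.92, 7.13, 7.38 and 7.63 (mean 7.36 ± 0.33, 164-fold, adjusted p = 3.17e-08, limma treat with Benjamini-Hochberg). Cyp2f2, the cytochrome P450 of club cells, averaged 6.52 ± 0.47. Scgb3a1, a secretoglobin of larger airways, was called at 3.68 ± 1.67 with values of 2.47, 4.44, 1.86, 6.08 and 3.56, where control 4 stood above all others. Bpifb1, a lipid-binding protein of airway mucus, was not called (mean 1.4 ± 1.59) and had its highest value, 4.11, in control 4. Nupr1, a stress-responsive chromatin protein, was at 0.53 ± 0.59. For cilia, the dynein light chain Dynlrb2 had 5.48, 4.76, 4.67, 5.22 and 5.05 and the tubulin-binding Tppp3 4.98, 4.76, 4.79, 5.07 and 4.89. Foxj1, the master regulator of motile cilia, was called at 3.08 ± 0.44, and the axonemal dynein Dnaic1 at 1.56 ± 0.41. Rsph1, of the radial spoke, was not called (0.83 ± 0.38) and was not well above background in the reference on any array.

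Endothelium had the highest median of all 42 lists, 4.34, and 29 of 30 genes were called higher. Calcrl, which forms with a partner protein the receptor for adrenomedullin, had log2 ratios of 6.42, 6.64, 6.88, 6.68 and 6.96 (105-fold, 95% interval 91.1 to 121). Cldn5, the tight junction claudin of endothelium, had 6.18, 6.4, 6.4, 6.26 and 6.63. Ptprb, the phosphatase that restrains the angiopoietin receptor, was outside this list and was the third of the named genes measured in both channels at 7.14 ± 0.34. The junction proteins Cdh5 (5.79 ± 0.59) and Pecam1 (2.72 ± 0.28) were called too, as was Aplnr, the apelin receptor (1.78 ± 0.27). Erg, an endothelial transcription factor, was not called (0.74 ± 0.3), and its reference spots were not well above background. Sparcl1, a matrix protein of vessels, reached 6.77 ± 0.54 and varied more (values 6.15, 6.5, 7.62, 6.81 and 6.77).

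The mesenchyme was split. Of 34 fibroblast and matrix genes 15 were higher and 6 lower, with a median of 1.23. Ces1d, a carboxylesterase of alveolar lipofibroblasts, had 6.2, 6.06, 6.15, 6.08 and 6.19, the smallest SD (0.06) among the 20 genes that stood highest. Mfap4, a microfibril protein, had 5.7, 5.35, 5.89, 5.59 and 5.76. On the other side, fibrillar collagen 1 was lower in lung: Col1a1 had -2.91, -2.97, -2.23, -2.48 and -2.98 and Col1a2 a mean of -1.99 ± 0.33. Fn1, the cell adhesion protein fibronectin, had -2.69, -2.52, -2.26, -2.12 and -2.5 (mean -2.42 ± 0.23, adjusted p = 1.01e-05, limma treat with Benjamini-Hochberg). Col3a1, the partner collagen of soft tissue, was at -0.66 ± 0.2 and not called. The value used for Col1a1 is that of 1 probe, and its probes lay between -2.71 and -0.58. Fbln2, a fibulin of the matrix, was lower at -3.46 ± 0.18, and so was Spp1, the secreted phosphoprotein osteopontin, at -3.73 ± 0.32.

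Smooth muscle and pericyte genes gave 9 higher of 18 and a median of 1.37. Gucy1a1 and Gucy1b1, the subunits of the nitric oxide receptor, were at 5.38 ± 0.33 and 3.46 ± 0.47. Gucy1b1 was not well above background in the reference, and its lung spots were at least 10.9-fold brighter. Calponin (Cnn1, 3.57 ± 0.58) and smooth muscle myosin (Myh11, 3.23 ± 0.49) were called. The actins Acta2 (-0.74 ± 0.29) and Actg2 (-0.56 ± 0.31) and transgelin (Tagln, 0.41 ± 0.55) were not, and the actins lay below 0 in all 5 mice. Pleural mesothelium was represented by 7 called genes of 13 (median 1.53), with the Wnt agonist Rspo1 (5.23 ± 0.37) and the growth factor carrier Igfbp5 (4.42 ± 0.34) highest. Among the list's defining genes, the uroplakins Upk3b (1.53 ± 0.26) and Upk1b (2.13 ± 0.18) were called, while mesothelin (Msln, 0.56 ± 0.34) and Wt1, a transcription factor (-0.35 ± 0.21), were not.

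Regulators of lung lineages were mixed: 14 of 32 were higher, 2 were lower, and the median was 1.08. The forkhead factor Foxa2 had values of 4.99, 4.35, 5.32, 5.09 and 4.81, whereas its relative Foxa1 was at 0.68 ± 0.37 and not called. Sox9, a factor of the embryonic lung tip, was lower (-1.67 ± 0.36), and so was Etv4, an effector of FGF signalling (-2 ± 0.41). Etv4 was not well above background in lung on any array, and the reference was at least 4-fold brighter.

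Immune genes ranged from well above to below the reference. Of 28 macrophage and monocyte genes 15 were higher and none lower, with a median of 1.74. Plet1, a surface protein, led with 4.4, 4.12, 4.37, 5.06 and 4.37, followed by Ear1, an RNase of alveolar macrophages and eosinophils (4.3 ± 0.52). The scavenger receptor Marco had 2.58, 4.22, 3.91, 4.59 and 2.82 and the chitinase-like Chil3 2.25, 4.68, 3.78, 4.75 and 2.81. Both were lowest in control 1 and highest in control 4. The mannose receptor Mrc1 was called at 2.57 ± 0.61. Among members below 0, the lectin Lgals3 (-0.99 ± 0.44) and the endotoxin co-receptor Cd14 (-1.59 ± 0.65) were not called. Among neutrophil genes 3 of 16 were higher and 1 was lower (median 0.7). The calcium-binding S100a9 was far above the reference (6.07, 7.04, 7.27, 7.4 and 7.15), its partner S100a8 was at 2.33 ± 0.88, and the lectin Clec4e was lower at -2.26 ± 0.3. Csf3r, the receptor for the granulocyte growth factor, was not called (0.77 ± 0.24).

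B cell genes gave 5 higher and 2 lower of 18, with a median of 0.8. The IgM receptor Fcmr (3.15 ± 0.37) and Vpreb3 (2.5 ± 0.42), a partner of newly made antibody heavy chains, were higher. Pou2af1, a coactivator of antibody genes (-1.72 ± 0.18), and Jchain, which joins secreted antibodies (-1.95 ± 0.62), were lower. The receptor chains Cd79a (0.2 ± 0.12) and Cd79b (1.06 ± 0.19) were not called. Of 18 T cell genes 2 were higher and 1 was lower, and the median was -0.41: Cd3d was called (2.07 ± 0.43), while its partners Cd3e (-0.15 ± 0.15) and Cd3g (-0.55 ± 0.15) in the same receptor were not. Lat, an adaptor of that receptor, was lower (-1.92 ± 0.14). MHC class II gave 6 higher of 8 with a median of 2.82, led by H2-Ab1, a class II chain (4.42, 4.29, 4.13, 4.24 and 4.13), and H2-DMb1, which loads peptides (3.71 ± 0.27). H2-Ob, which restrains loading, was not called (0.84 ± 0.31). MHC class I had 2 of 15 called higher and none lower, beside 7.81% higher over all genes. Its median changed sign with the scaling, from 0.69 to -0.32 under median centring.

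Blood genes were present in the tissue. Of 9 red cell genes 5 were higher, and the globins Hbb-bt and Hba-a1 were at 5.47 ± 0.66 and 5.21 ± 0.28. The erythroid regulator Klf1 (-0.29 ± 0.09) and the blood group protein Rhd (-0.8 ± 0.35) were not well above background in lung. Among NK and cytotoxic genes 2 of 9 were higher, of which the lectin Klrd1 had the highest mean (2 ± 0.46). Kit, the stem cell factor receptor carried by mast cells and other cells, was not well above background in the reference and was at least 8.68-fold brighter in lung. Hdc, which makes histamine, was at 4.17 ± 0.19, whereas Mcpt4, a mast cell protease (0.71 ± 0.45), and Fcer1a, the IgE receptor chain (-0.03 ± 0.25), were not called.

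Enzymes that handle foreign compounds and prostanoids gave 26 higher of 44 and none lower, with a median of 1.83. Cyp4b1, a lung P450 that activates arylamines and furans, had 6.86, 6.37, 6.49, 6.42 and 6.59 (93.3-fold, adjusted p = 1.35e-08, limma treat with Benjamini-Hochberg). The P450 Cyp2a5, which hydroxylates coumarin, was higher but uneven (4.81, 4.45, 6.08, 8.06 and 5.55). Cyp1a1, the P450 induced through the aryl hydrocarbon receptor, was not called (mean 1.44 ± 0.73) and was not well above background in the reference on any array. Cyp1b1, its relative, was at -1 ± 0.12 and Ptgs2, the inducible cyclooxygenase, at -0.64 ± 0.25, and neither was called. Hpgd, which inactivates prostaglandins, was not well above background in the reference on any array. It had the largest bound of all such named genes, at least 33.6-fold in favour of lung by the probe used. Its other probe had a log2 ratio of 3.22. Complement and host defence genes gave 19 higher of 28 (median 2.52). Beside the collectins and lysozymes, Hc, complement component 5, was at 6.21 ± 0.3, and the first components C1qa (1.99 ± 0.76), C1qb (1.78 ± 0.66) and C1qc (2.73 ± 0.7) were all called. C8g, of the membrane attack complex, was not (-0.31 ± 0.33).

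The remaining lists were smaller or had medians nearer to 0. Of 13 neuroendocrine and nerve genes 5 were higher (median 0.81), and of 10 platelet genes 3 (median 0.48). Cartilage had 1 higher and 1 lower of 10 (median -0.08), and the circadian list 1 of each among 22. The glucocorticoid list had 2 higher and 3 lower of 19. Medians of the circadian and glucocorticoid lists were 0.2 and 0.31 and fell below 0 under median centring (-0.08 and -0.67). Of 9 testis and germ cell genes 0 were called by limma treat, with a median of 0.04 that was below 0 with processed signals (-0.55) and in the authors' deposited table (-0.07).

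Further genes stood as high as the cell type markers. Mal2, a protein of apical transport, had 6.96, 6.75, 7.11, 6.9 and 6.83 and an SD of 0.14. Ctsh, a protease that processes surfactant proteins, had 7.04, 6.27, 6.14, 6.21 and 6.34, with control 1 above the others. Hp, which binds free haemoglobin and is in the club and secretory list, was at 6.23 ± 0.28, and the non-muscle myosin Myh14 at 5.89 ± 0.32.

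Of 294 genes that were well above background in lung on all 5 arrays and on none in the reference, 105 were called higher. Over all genes 7.81% were called higher, and the choice by channel fixed the direction of the 105. For such genes only a lower bound of the mean fold can be given. It uses the higher of the dimmest detectable signal on each array and the spot's own signal. This bound holds no error for the spread between mice, so single mice can lie below it. For Clec14a the log2 ratios of controls 1 and 2 were 2.87 and 2.77, against a mean of 3.19. Il18r1, a receptor chain for interleukin 18, was at least 28.4-fold brighter in lung. Gpc3, a heparan sulphate proteoglycan, followed with at least 23.2-fold and the adhesion protein Pcdh17 with at least 19.6-fold. The metalloproteinase Adamts8 (at least 12.5-fold), the aminopeptidase Enpep (at least 12.4-fold) and the cholecystokinin receptor Cckar (at least 10.9-fold) were among the next. Dnah5, an outer arm dynein of motile cilia, was at least 8.51-fold brighter. Clec14a, a lectin of endothelium, was at least 9.12-fold brighter.

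The reference stood above lung for cell division. Of 61 mitosis genes 51 were lower in lung and none was higher, with a median of -2.35, and 13 of the 61 were not well above background in lung on any array. Cenpe, the kinetochore motor, had log2 ratios of -3.86, -3.7, -3.51, -3.78 and -4.09 (mean -3.79 ± 0.21, reference 13.8-fold above lung, 95% interval 12 to 15.9, adjusted p = 2e-07, limma treat with Benjamini-Hochberg). Birc5, the chromosomal passenger survivin, had -3.92, -3.61, -3.39, -3.63 and -3.94, and Ccna2, cyclin A of S phase and mitosis, -3.49, -3.4, -3.35, -3.58 and -3.71. All 5 mice were far below 0 for these genes. The kinases Cdk1 (-2.65 ± 0.38) and Aurka (-3.29 ± 0.2), cyclins Ccnb1 (-3.27 ± 0.41) and Ccnb2 (-2.82 ± 0.22), Cks1b, a cofactor of the cyclin-dependent kinases (-3.65 ± 0.35), and Sgo1, the guardian of centromere cohesion (-3.64 ± 0.33), were lower as well. Ttk, the spindle checkpoint kinase (-0.54 ± 0.16), and Hmmr, a spindle protein (-0.76 ± 0.17), had the smallest differences, and neither was well above background in lung. For such genes the ratio measures the dim background of the lung spot, so it understates the difference.

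The gene starts of Cdc20, Kif22 and Ube2c are shown because promoters of mitotic genes commonly carry CCAAT boxes, bound by NF-Y, near a cell cycle homology region (CHR), here the letters TTTGAA or TTCGAA, bound by repressor and activator complexes of the cell cycle. Cdc20, the activator of the mitotic ubiquitin ligase, was chosen for its promoter after its values were seen (mean -2.96 ± 0.22). Kif22, a chromosome motor, was at -3.5 ± 0.18, and Ube2c, the ubiquitin-conjugating enzyme of that ligase, at -3.31 ± 0.31. The 250 bases before each start (RefSeq, GRCm38.p6) are written with every match to either motif, on either strand, in capitals. Cdc20 lies at chr4:118437344-118437593 (- strand), Kif22 at chr7:127042421-127042670 (- strand) and Ube2c at chr2:164769679-164769928 (+ strand):
Cdc20: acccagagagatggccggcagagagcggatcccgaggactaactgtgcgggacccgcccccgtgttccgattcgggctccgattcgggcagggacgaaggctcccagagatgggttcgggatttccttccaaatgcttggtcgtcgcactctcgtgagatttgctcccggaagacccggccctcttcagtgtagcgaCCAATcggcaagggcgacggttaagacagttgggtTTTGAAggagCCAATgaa
Kif22: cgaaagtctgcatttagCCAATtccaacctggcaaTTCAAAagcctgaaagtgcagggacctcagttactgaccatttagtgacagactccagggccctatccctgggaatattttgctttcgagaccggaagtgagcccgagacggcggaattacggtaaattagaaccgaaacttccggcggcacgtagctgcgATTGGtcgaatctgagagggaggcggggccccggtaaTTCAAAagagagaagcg
Ube2c: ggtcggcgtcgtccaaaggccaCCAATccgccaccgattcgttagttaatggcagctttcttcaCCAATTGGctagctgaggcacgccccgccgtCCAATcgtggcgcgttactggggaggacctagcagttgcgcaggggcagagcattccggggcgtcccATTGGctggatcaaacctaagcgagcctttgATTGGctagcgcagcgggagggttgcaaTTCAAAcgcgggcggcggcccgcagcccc
On the opposite strand CCAAT reads ATTGG and TTTGAA reads TTCAAA, and TTCGAA reads the same on both strands. Cdc20 held 2 CCAAT and 1 CHR, Kif22 held 2 of each, and Ube2c held 6 CCAAT, of which 2 overlap on opposite strands, and 1 CHR. CCAAT occurred in this window of 34 of the 50 mitosis genes with a promoter in the table (68%), and at least 2 times in 22 (44%), against 34.5% and 10.5% of all 27025 genes. CHR letters occurred in 18 of 50 (36%) against 17.4%. Of 39 DNA replication genes with a promoter, 23 held CCAAT (59%) and 17.9% held CHR letters. These shares describe the letters and do not show that a factor binds.

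DNA replication genes followed mitosis: 33 of 46 were lower in lung, none was higher, and the median was -1.95. Cdt1, which loads the replicative helicase, had -3.45, -3.12, -3.32, -3.45 and -3.62, and Uhrf1, which copies DNA methylation to the new strand, had -3.14, -3.03, -3.23, -3.64 and -3.86. Uhrf1 was lowest in controls 4 and 5. The helicase subunits Mcm2 (-2.24 ± 0.23), Mcm3 (-2.32 ± 0.29) and Mcm4 (-1.87 ± 0.18) were lower as well. Prim2, a primase subunit (-0.24 ± 0.13), and cyclin Ccne2 (-0.32 ± 0.16) were not called.

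Biosynthesis was lower in lung to different degrees. Nucleotide and amino acid synthesis had 18 of 34 genes lower and none higher (median -1.34). Phgdh, the entry enzyme of serine synthesis, had -4.17, -3.35, -3.16, -3.19 and -2.78, lowest in control 1, and the mitochondrial folate enzyme Mthfd1l averaged -3.22 ± 0.17. Impdh1, of guanine nucleotide synthesis, was above 0 (1.28 ± 0.36) but not called. Of 23 glycolysis genes 14 were lower and 1 was higher (median -1.74). Eno1 and Eno2, the enolases, had means of -3.3 ± 0.24 and -3.21 ± 0.24, and Slc2a1, the glucose carrier of dividing cells, -3.01 ± 0.22. Ldhb, the lactate dehydrogenase subunit of oxidative tissue, was the exception, with 2.57, 2.27, 1.86, 2.25 and 2.19, while hexokinases Hk1 (-0.99 ± 0.16) and Hk2 (-1.25 ± 0.56) were not called. Ero1a, which forms disulphide bonds in the endoplasmic reticulum, was lower too (-3.37 ± 0.33).

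Ribosome biogenesis had 16 of 44 genes lower (median -1.01), led by the nucleolar proteins Npm1 (-1.93, -2.15, -2.3, -2.32 and -2.17) and Ncl (-1.91 ± 0.36), while the methyltransferase Fbl was at -1.01 ± 0.17. Cytoplasmic ribosomal proteins stayed close to the centre, with 8 of 77 lower, none higher and a median of -0.45. Rpl14 (-2.61 ± 0.21) and Rpl4 (-2.1 ± 0.31) were lowest, and Rps27 (0.84 ± 0.21) and Rpl37a (0.69 ± 0.13) were above 0. Without loess and with each array centred on its median, the median of this list was -2.15, against -0.29 for all genes, and 42 of its genes were called lower. The respiratory chain had no called gene among 54 by limma treat, and its median was -0.23. Its members ran from Cox7c, a cytochrome oxidase subunit (-1.88 ± 0.83), to Ndufb10, of complex I (0.92 ± 0.06).

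Genes of the embryo and of transformed cells, and genes of acute stimulation, were uneven. Of 23 oncofetal and pluripotency genes 6 were lower and 2 higher (median -0.44). Rhox5, a homeobox gene of the placenta, testis and many cell lines, had -3.87, -3.44, -4.1, -4.5 and -4.72, and Dlk1, an imprinted Notch-type ligand, -2.9, -2.64, -2.99, -3.65 and -3.7. The imprinted growth inhibitor Cdkn1c (2.11 ± 0.35) and Mest (1.57 ± 0.22), a hydrolase-like imprinted gene, were higher in lung. Of 35 immediate early and stress genes 8 were lower and 2 higher (median -0.49). The chemokine Ccl2 had -3.57, -3.18, -3.53, -2.98 and -4.08 and the zinc finger factor Egr1 -2.88, -2.93, -3.23, -3.15 and -3.64. The AP-1 members Fos (-1.79 ± 0.26) and Fosl1 (-2.7 ± 0.43) were lower, Fosb (-1.16 ± 0.31) was not called, and Klf4, a factor of quiescent epithelium, was higher (1.96 ± 0.33).

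Il1rl1, the receptor for interleukin 33, had the lowest mean of all named genes measured in both channels (-4.44, -4.03, -4.51, -5.26 and -5.39, mean -4.73 ± 0.58, reference 26.5-fold above lung). Its 3 probes lay between -4.73 and -1.21, so the size rests on the probe used. Pik3r1, the regulatory subunit of PI3 kinase, was at -3.54 ± 0.21 by the probe used, and its 4 probes ran from -3.54 to 0.69. For 20 of the 51 genes named here that had several probes, the probes differed by more than 1.5 log2 units. Beside Il1rl1, Pik3r1 and Col1a1, the other probes were closer to 0 for Calcrl (down to 1.09), Cenpe (-0.43), Gucy1a1 (0.83), Gucy1b1 (0.77), Plet1 (1.08), Igfbp5 (0.83), Clec14a (0.41), Bcat1 (-0.38), Ncl (-0.05), H2-DMb1 (1.33) and Cdh5 (2.43). Another probe was also lower, though still high, for Hpgd (3.22), Lyz2 (4.16), Sftpa1 (4.62) and Clic5 (4.5). For Hbb-bt another probe was higher (8.61), and the probes of Sema3e lay on both sides of the value used (0.25 to 2.2). Over the whole array, 3995 named genes had more than 1 tested probe, and 0 of them had probes called in opposite directions by limma treat.

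Another 843 genes were well above background in the reference and on no array in lung. Of these, 33 were called lower in lung, beside 4.56% of all genes, and the choice by channel fixed this direction. Hoxc9, a homeobox gene of the trunk, had the largest bound, with the reference at least 8.79-fold brighter. Prl2c5 and Prl2c3, proliferin hormones of the placenta, followed with at least 6.58-fold and 5.27-fold. They are close relatives, and 1 probe can bind RNA of both. Next came Ska1, which holds microtubules to kinetochores (at least 5.17-fold), Bcat1, which breaks down branched amino acids (at least 4.87-fold), Tex19.1, a germ cell gene that restrains transposons (at least 4.82-fold), and the intestinal keratin Krt20 (at least 4.74-fold).

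Most genes differed little between mice after loess. The median SD of the log2 ratio over the 5 controls was 0.183, against 0.161 for the pooled SD within the 3 treated groups. An SD of at least 0.5 was found for 859 genes (4.33%) and of at least 1 for 201 (1.01%). This depends on the normalisation: with no loess and each array centred on its median, 7759 genes had an SD of at least 0.5, and with the scanner's processed signals 4256 did. The spread was larger in the lung channel: over the 14808 genes measured in both channels the median SD was 0.202 for lung and 0.084 for the reference, and lung had at least 2 times the SD of the reference in 8698 genes (58.7%), while the reverse held in 129 (0.871%). The 2 channels share each array, so this compares the RNA of 5 mice with 5 repeats of 1 pool. Lung was red and the reference green on every array. A larger spread of the red channel from labelling or scan therefore cannot be told apart from spread between mice. The list means of alveolar type 2 cells and endothelium differed little between mice, though single members could move in opposite ways. In control 1, for example, Sftpc was highest and Sftpd lowest. The macrophage and monocyte list differed more (1.31, 1.64, 1.88, 2.39 and 1.74 in controls 1 to 5). Of its 28 members, 14 had an SD of at least 0.5. The mean of the alveolar type 2 list was 3.63, 3.69, 3.98, 3.76 and 3.79 in controls 1 to 5, and that of endothelium 4.01, 3.87, 4.21, 3.96 and 4.2.

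**Figure D2:**
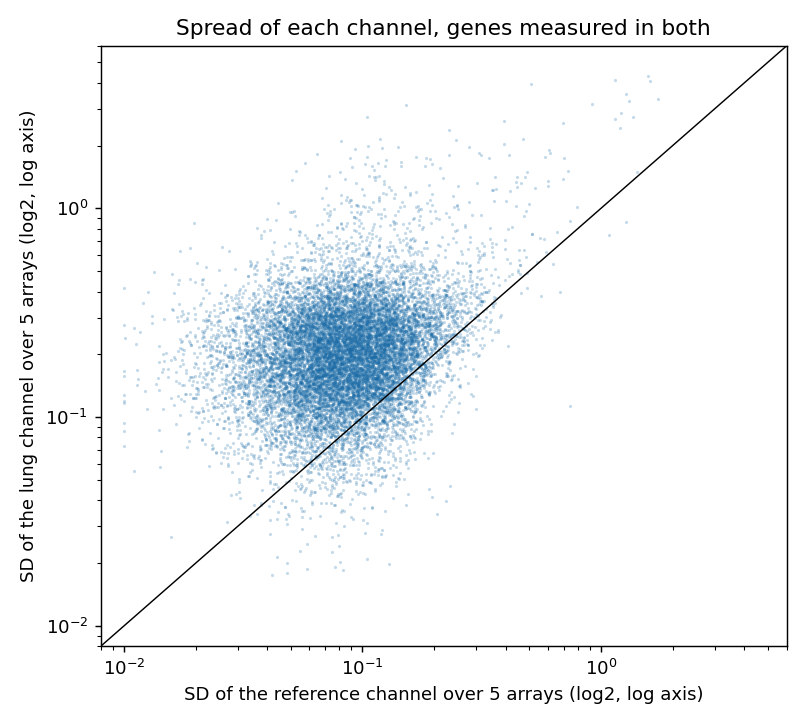
SD over the 5 control arrays of the lung channel (vertical, log2, log axis) against the reference channel (horizontal, log2, log axis) for 14808 genes measured in both, with values below 0.01 drawn at 0.01. Most points lie above the line of equal SD, with a median of 0.202 for lung and 0.084 for the reference.

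Most of the largest spread lay with 1 or 2 of the mice. For each gene, the farthest mouse was the mouse with the largest distance from the mean of the other mice. Among the 201 genes with an SD of at least 1, the farthest mouse was control 5 in 125 (high in 124). It was control 4 in 35 (high in 34). It was control 3 in 30 (high in 26), control 1 in 7 and control 2 in 4. Over all genes tested, the farthest mouse was control 1 in 5423, control 3 in 4470, control 5 in 3695, control 4 in 3247 and control 2 in 2990. Without control 5, 99 of the 201 still had an SD of at least 1, and without controls 4 and 5, 45 did. Whether tissue beside the lung was part of these samples was not tested.

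**Figure D3:**
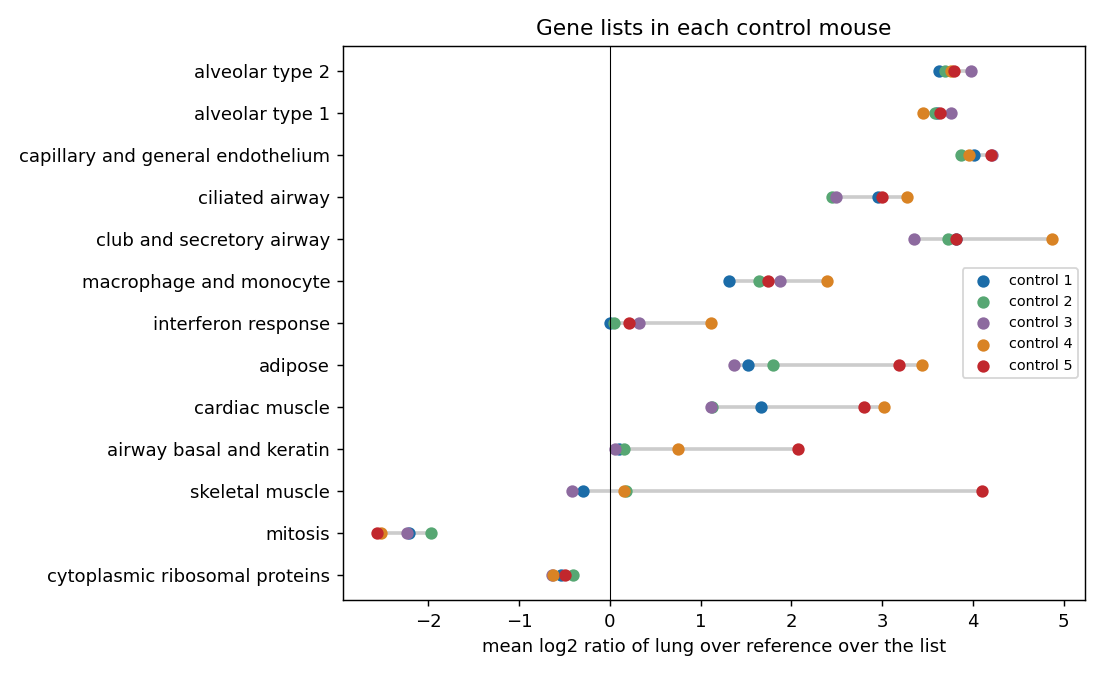
Mean log2 ratio of lung over reference (horizontal axis) over the tested members of 13 gene lists, with 1 point for each control mouse. Alveolar type 2 points lie between 3.63 and 3.98, whereas the skeletal muscle list is at 4.1 in control 5 and between -0.42 and 0.18 in the other mice.

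Control 5 was set apart by genes of skeletal muscle and of stratified epithelium. The mean of the skeletal muscle list was -0.3, 0.18, -0.42, 0.16 and 4.1 in controls 1 to 5, and 1 of 20 members was called higher (Myh8, 2.79, 3.31, 1.59, 3.38 and 6.93). Acta1, skeletal alpha actin, had log2 ratios of -1.6, -0.37, -1.5, -1.41 and 6.43. The troponins Tnnt3 (-0.28, 0.62, -0.54, 0.86 and 6.88), Tnnc2 (-0.8, 1.76, -1.04, -1.1 and 5.4) and Tnni2 (-0.18, 1.17, -0.51, 0.11 and 5.06) followed, and for each of these genes control 5 lay above every other control. Lor, loricrin of the cornified cell envelope, had 0.4, 0.25, 0.21, 0.37 and 6.96 and Lce1b, another envelope protein, 0.12, 0.09, 0.09, 0.11 and 4.76. Krt13 and Krt14, keratins of stratified epithelium, had -0.3, -0.16, -0.24, -0.04 and 3.99 and -0.78, -0.55, -0.73, -0.76 and 3.09. Krt13 was chosen after its values were seen. Ada, adenosine deaminase, had -1.61, -1.15, -1.26, -1.16 and 5.99. The mean of the airway basal and keratin list was 0.1, 0.16, 0.06, 0.75 and 2.07. The pooled SD within the treated groups was 0.15 for Lor, 0.15 for Ada and 0.08 for Lce1b, against 2.98, 3.26 and 2.08 in the controls, and it was 1.12 for Acta1.

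The means of the adipose and cardiac lists were higher in controls 4 and 5. The mean of the adipose list was 1.52, 1.8, 1.37, 3.44 and 3.19 in controls 1 to 5 (6 of 14 higher), and that of the cardiac list 1.67, 1.13, 1.11, 3.02 and 2.8 (9 of 26 higher). Adipoq, the fat hormone adiponectin, had 0.53, 1.32, 0.13, 3.83 and 3.38, and Cfd, adipsin, 4.3, 5.42, 3.11, 6.9 and 6.33. Plin1, a coat protein of fat droplets, averaged 1.21 ± 1.27. Myl7, atrial myosin light chain, had 5.47, 4.53, 4.99, 6.54 and 4.81, highest in control 4 and not raised in control 5, and Myh6, alpha myosin of the heart, averaged 4.15 ± 0.79. The cardiac list also holds genes that skeletal muscle expresses strongly, such as the creatine kinase Ckm (0.43, 0.29, 0.22, 1.93 and 5.58) and the giant sarcomere protein Ttn (0.74, 0.73, 0.47, 2.4 and 5.02), and both were highest in control 5. Pulmonary veins of the mouse carry cardiac muscle, and whether the cardiac genes here came from them or from other tissue was not tested. Myh7, beta myosin of heart and slow muscle, did not share the spread: its values were 5.37, 5.09, 5.37, 5.18 and 5.48, with an SD of 0.16 against a median of 1.07 over the cardiac list. The pooled SD within treated groups had a median of 1.04 over the cardiac list, 0.68 over the adipose list and 0.29 over the skeletal list.

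Control 4 also differed in airway and interferon genes. Bpifa1, a surfactant-like protein of upper airway mucus, had 1.88, 3.57, 0.19, 7.41 and 3.61, and the pooled SD within treated groups was as large (2.58 against 2.68). Ltf, the iron-binding lactoferrin of gland secretions, had 1.37, 1.54, 0.64, 5.97 and 1.15. Its pooled SD within treated groups was also large (1.73 against 2.17 in the controls). Nppa, the atrial natriuretic peptide, had 1.55, -0.02, 0.1, 3.66 and -0.1, high in control 4 and not in control 5. It was chosen after its values were seen. The mean of the club and secretory list was 3.82, 3.73, 3.35, 4.87 and 3.81. The interferon list was at 0, 0.05, 0.32, 1.11 and 0.21, with 5 of 30 genes higher, 1 lower and a median of 0.33 that turned to -0.44 under median centring. Ifi27l2a, an interferon-induced membrane protein, had -0.7, 1.04, 0.37, 4 and 1.99, and Irf7, the factor that drives the interferon genes, averaged -1.11 ± 0.74.

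**Figure D4:**
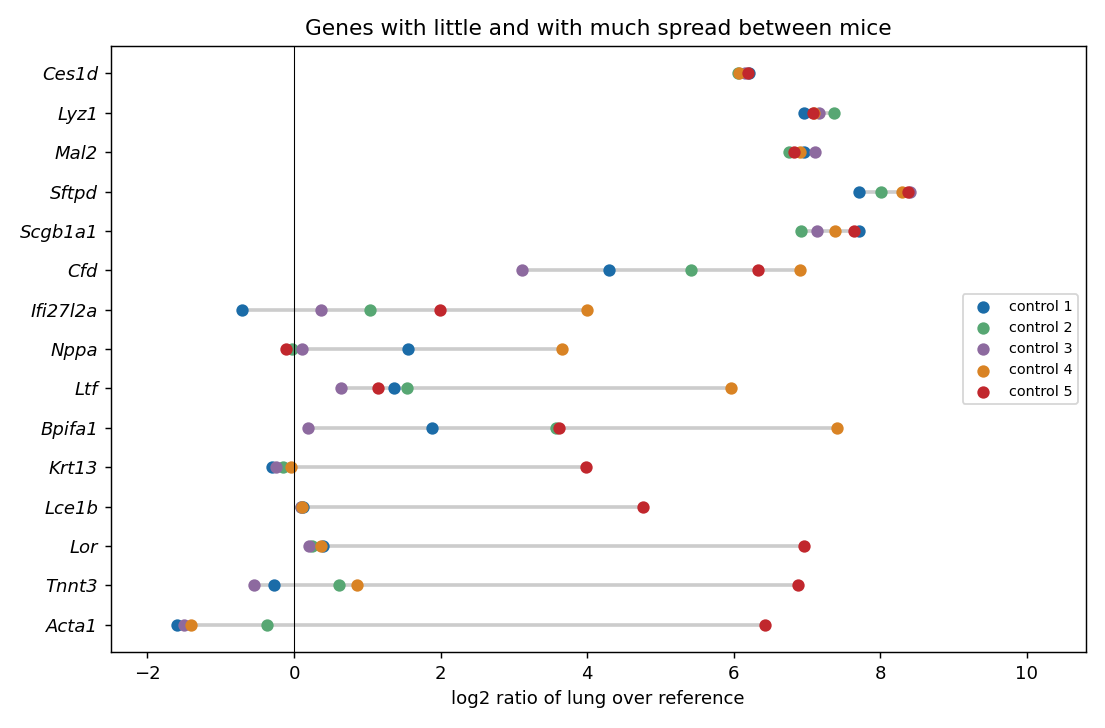
Log2 ratio of lung over reference (horizontal axis) in each of the 5 control mice for 15 genes, ordered from stable lung genes to genes that differ between mice. Ces1d, Lyz1 and Mal2 have nearly the same value in every mouse, Ltf and Bpifa1 are highest in control 4, and Krt13, Lce1b, Lor, Tnnt3 and Acta1 are highest in control 5.

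Where a spot was very bright in lung on 1 array only, its reference channel was in most cases also highest there. There were 8 spots with a red signal of at least 20000 units above background in 1 control and at most 2000 in the others. Of these, 7 also had their highest green signal on that array, and Ada did not (572, against 581 on another array). Over all 8, green stood above the median of the other arrays by 0.34 to 6.14% of the red signal (median 1.67%). At Bpifa1 in control 4 the red signal was 150526 and the green 1017.5, against at most 40 on the other arrays. Such a rise in green lowers the ratio of that spot on that array. Its part in the spread between mice was not tested further. Spots that were very bright in lung on all 5 arrays had green signals as well: Scgb1a1 had 114766 to 263866 in red and 1984 to 4219 in green, and Sftpc 212938 to 348902 and 4819 to 7746.5. How much of that green followed the red was not tested, and it bears on the folds of the brightest lung genes and on their order.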

How the data were processed

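Lung RNA of 5 vehicle-treated mice was hybridised with a common reference on 2-colour Agilent arrays, and per the file headers the deposited red and green intensity values were extracted with Feature Extraction 10.7.3.1. The authors also deposited a table of log2 ratios, per the labels, whose scale and direction match the loess ratios computed here (r = 0.994 to 0.998) and whose centring is not stated (column medians -0.053 to -0.042); it was used as an alternative. From the median spot and background intensities, ratios were made in limma 3.58.1 (R 4.3.3) with normexp correction (offset 50) and loess within each array. The offset draws ratios of dim spots towards 0, and loess sets the centre of each array to about 0. Control spots and outlier flags (0.31% of spots) were left out, and 0 spots were saturated. Probes well above background on at least 4 of 5 arrays in either channel were kept, and the brightest probe over both channels stood for a gene. RefSeq accessions named 56.77% of 41174 probes; of 19825 genes tested 12600 had a symbol. The array number limits the precision. The test was treat against 2-fold, 2-sided, with Benjamini-Hochberg adjustment. The error behind the p-values holds the spread between mice together with that of labelling, array and scan, against 1 reference pool. On simulated data with this design, 41 of 50 genes changed 3-fold, 47 of 50 changed 4-fold and all 50 at 8-fold were recovered. There was 1 false call. Changes were planted only in genes outside the largest SDs, and all other genes were set below 2-fold. The noise was normal and independent, so mice that stand apart and effects shared by an array were not simulated.

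A spot above background in only 1 channel gives a lower bound of the mean fold over the 5 mice. It uses the higher of the dimmest detectable signal on each array and the spot's own signal, without error for the spread. The members and the 42 gene lists were chosen with earlier results of these data known; of 1195 list entries 991 were tested, 117 had no probe past the filter and 87 no named probe, and some genes are in more than 1 list. Named genes are a choice from the 20 highest and 20 lowest means, the 15 largest bounds in each direction, the 20 largest SDs among genes detected in all 5 lungs and the 10 largest among those detected in 1 to 4, and in each list the 2 highest, the 2 lowest and the first 3 members. Cdc20, Krt13, Nppa and the genes under the other observations were chosen after their values were seen. The alternatives were other backgrounds and offsets, median centring, processed signals, the authors' table, other filters, probes and folds, and leaving out arrays.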

Additional observations from a re-analysis of the deposited data

Results flagged for a closer look

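Among 5 mice, a single value can stand apart by chance in about 1 in 20 genes; over 19817 genes it did so in 1260 (6.36%), by Dixon's test at the 95% level. The values below stood apart from the other 4 mice among the genes and lists named here. They came from 21 of 205 genes and 2 of 42 lists. Acta1, Ada, Lor, Lce1b, Ltf and Tnnt3 were named for their large SD, and Krt13, Ahsg and Saa3 after their values were seen. The choice of these genes favoured a flag, so the share among named genes cannot be set against the 6.36% of all genes.

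Control 5 stood apart for 9 genes and 1 list. It was highest for Acta1 (6.43, next -0.37), Ada (5.99, next -1.15), Lor (6.96, next 0.4), Lce1b (4.76, next 0.12), Krt13 (3.99, next -0.04), Krt14 (3.09, next -0.55) and Tnnt3 (6.88, next 0.86), and for the mean of the skeletal muscle list (4.1, next 0.18). It was also highest for the hexokinase Hk2 (-0.29, next -1.29) and lowest for the AP-1 member Fos (-2.23, next -1.76).

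Control 4 was highest for Ltf (5.97, next 1.54), Irf7 (0.18, next -1.25), the endotoxin co-receptor Cd14 (-0.47, next -1.7), the acute phase gene Saa3 (0.21, next -2.27) and the mean of the interferon list (1.11, next 0.32). It was lowest for the endothelial adhesion protein Pecam1 (2.22, next 2.79).

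Control 1 was highest for the protease Ctsh (7.04, next 6.35) and the plasma protein Ahsg (2.85, next 0.63), and lowest for the globin Hba-a1 (4.71, next 5.32) and for S100a9 (6.07, next 7.04). Control 3 was highest for Erg (1.27, next 0.68) and Gpc3 (5.24, next 4.57) and lowest for the cyclin Ccne2 (-0.61, next -0.28). The arrays of controls 1 and 3 were the 2 marked for evaluation by the scanner's quality report, and the part of array quality in these values was not tested.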

How the results depend on the processing

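The counts of genes higher and lower in lung (1548 and 905) changed by over 1.5 times under median centring (643 and 1653), with processed signals (2808 and 3001), and by construction with other folds: 2718 and 2065 against 1.5-fold, 565 and 156 against 4-fold, and 6736 and 6552 against a ratio of 1. With offset 10 they were 2098 and 1099. The cause of the differences between scalings was not tested. Leaving out each mouse in turn gave 1401 to 1568 higher and 816 to 903 lower. Leaving out both arrays marked for evaluation gave 1328 higher and 709 lower, with fewer arrays to test. These held 84.5% and 77.3% of the main calls. Genes with an SD of at least 0.5 (859) numbered 7759 under median centring and 4256 with processed signals, and 775 to 916 with a mouse left out; those with an SD of at least 1 (201) numbered 325 and 747, and 117 to 222 with a mouse left out, 117 of them without control 5, and 65 without controls 4 and 5, which was chosen after seeing the data. Within the treated groups, SDs of at least 0.5 numbered 287, 1909 under median centring and 3262 with processed signals. The median of the MHC class I, keratin, interferon, circadian, glucocorticoid or testis list changed sign under at least 1 scaling; no other list's did. Averaging the 2 arrays of 1 scan day (chosen after seeing the data) gave 1547 higher and 891 lower. No random block for slide was fitted, since each control lay on its own slide, and one for scan day could not be estimated in any of 500 genes. No paired analysis was possible because the mouse numbers of the groups are not shared and the comparison is within each array. Dim signals limit 294 genes to a bound in lung's favour and 843 in the reference's.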

Other observations

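Some genes outside the lists divided the 5 mice differently from the tissue genes, and they were chosen after their values were seen. Trim12a, a member of a family of antiviral ring-finger proteins, had log2 ratios of 4.31, -0.1, 2.99, 3.33 and -0.18 in controls 1 to 5. Controls 1, 3 and 4 were high and controls 2 and 5 were near 0, and the pooled SD within the treated groups was 1.96. Acoxl, an acyl-CoA oxidase-like protein, had 3.74, 0.73, 3.49, 0.58 and 3.14, high in controls 1, 3 and 5 and low in controls 2 and 4. Its pooled SD within the treated groups was 0.91.

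Plasma protein genes typical of liver were close to the reference in most mice. Of 8 tested liver genes 2 were called higher, the retinol carrier Rbp4 (2.43 ± 0.23) and the adhesion protein Vtn (1.84 ± 0.46). Ahsg, the plasma protein fetuin A, had 2.85, 0.25, 0.5, 0.63 and 0.35, highest in control 1. Saa3, an acute phase protein of tissues, had -3.05, -2.27, -2.78, 0.21 and -2.76, and it was highest in control 4. Slpi, a protease inhibitor of airway secretions, had -2.22, -1.5, -1.31, 0.11 and 1.66, with controls 4 and 5 above 0 and the other mice below.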
